A study of Mus musculus with 6 samples.

Results

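The genes described are 44 mitotic and G2/M genes of the mouse, given by name: B-type and A-type cyclins and their kinase, mitotic kinases, checkpoint and kinetochore components, spindle motors, regulators of anaphase and cytokinesis, and proteins that shape chromosomes. They were found by the gene annotation that each read carried. Of the 44 names, 41 equalled an annotation, Cdk1 was annotated under its older symbol Cdc2a, and Mki67 and Ncapg had no annotation. The 42 annotated genes, among 14765 gene annotations, all had enough reads to be tested, as did 11125 genes in all.

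Messenger RNA was measured in Mvt1, a mouse mammary carcinoma line of the FVB/N strain that was labelled as mammary epithelial cancer cells. The line was stained for the surface protein CD24 and sorted by FACS into CD24- cells, without CD24 at the surface, and CD24+ cells. Each group was sequenced from 3 plates of adherent cells grown in the same DMEM with serum, and the labels name no treatment for either group. The study describes no independent sorts, so the spread between libraries is a spread between plates, and a difference tied to CD24 cannot be told apart from any other difference between the sorted populations.

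A dividing cell accumulates the transcripts of mitotic genes in the late S and G2 phases and clears them as it leaves mitosis. Cdk1 bound to a B-type cyclin drives entry into mitosis, the spindle checkpoint holds the cell until every chromosome is attached, and the anaphase-promoting complex then has the cyclins and securin degraded. In bulk RNA, a lower level of these transcripts can come from fewer dividing cells or from less of the transcript in each, and these cannot be told apart.

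The libraries held between 9046025 and 25692147 mapped reads of 47 nt, of which 71.8% to 74.3% were annotated to a gene. Levels are given in CPM, counts scaled to the library's gene reads with TMM factors from edgeR. The shallowest library was CD24+ replicate 1. Cd24a, the gene of the sorted marker, read 12.1, 11.5 and 6.99 CPM in the CD24- replicates and 73.4, 85.6 and 72.5 CPM in the CD24+ replicates. Among all genes tested, 46.1% passed an adjusted p of 0.05 (edgeR's quasi-likelihood F test with Benjamini-Hochberg adjustment), made up of 23.8% higher and 22.3% lower in CD24+ cells. In 57.3% of the genes, the CD24- and CD24+ libraries did not overlap.

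Of the 42 mitotic genes measured, 11 passed the test, which is 26.2% beside the 46.1% of all genes. In CD24+ cells, 7 were higher (Racgap1, Ube2c, Ect2, Ccnb2, Cks2, Nusap1 and Bub1) and 4 were lower (Nuf2, Cenpf, Nek2 and Kif4). Changes were small in both directions, from -0.72 for Nuf2 to 0.51 for Racgap1 on the log2 scale. None of the genes changed by 1 or more on the log2 scale, where 14.5% of all genes did. The median log2 fold-change was 0.02 in the mitotic genes and 0.02 in all genes, and the median absolute value was 0.13 beside 0.29. The groups did not overlap for 15 of the 42 genes, or 35.7%, beside 57.3% of all genes. Mitotic genes were well expressed, with mean levels of 23.3 to 879 CPM, and among the 7231 genes within that range 45.7% passed the test. The 95% interval of the fold-change lay between -0.5 and 0.5 on the log2 scale for 32 of the 42 genes (76.2%), and for 41.1% of all genes. In the 7231 genes of the same range of levels it did so for 53.9%. Of those genes 6.97% changed by 1 or more, and their median absolute log2 fold-change was 0.24. At an unadjusted p below 0.05, 12 of the 42 genes would be counted, beside 53.2% of all genes. When each distinct read sequence was counted once per library, 3 of the 42 genes were called (Nuf2, Cenpf and Nusap1), beside 33.4% of all genes. In that count the log2 fold-changes that missed the threshold included 0.18 for Racgap1, 0.17 for Ect2, 0.13 for Ccnb2, 0.03 for Cks2 and 0.02 for Ube2c. By its construction this count rises less than the reads as depth and level rise. Not every fold-change became smaller, since Cdk1 went from -0.13 to -0.22 and Cenpa from -0.09 to -0.17. The median of the 42 genes went from 0.02 to -0.05. Why calls were lost in this count was not tested. Reads per distinct sequence of the 42 genes ran from 1.56 in the shallowest library, CD24+ replicate 1, to 2.45 in CD24+ replicate 2. With reads thinned to the shallowest library instead, 10 genes were called (23.8%, beside 43.35% of all genes). The 10 genes included Ube2c (0.33) and Racgap1 (0.54). Kif4, Bub1 and Nek2 lost their calls in 9, 8 and 5 of the 15 alternatives without a fold minimum, most of them with 1 library left out.

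**Figure D1:**
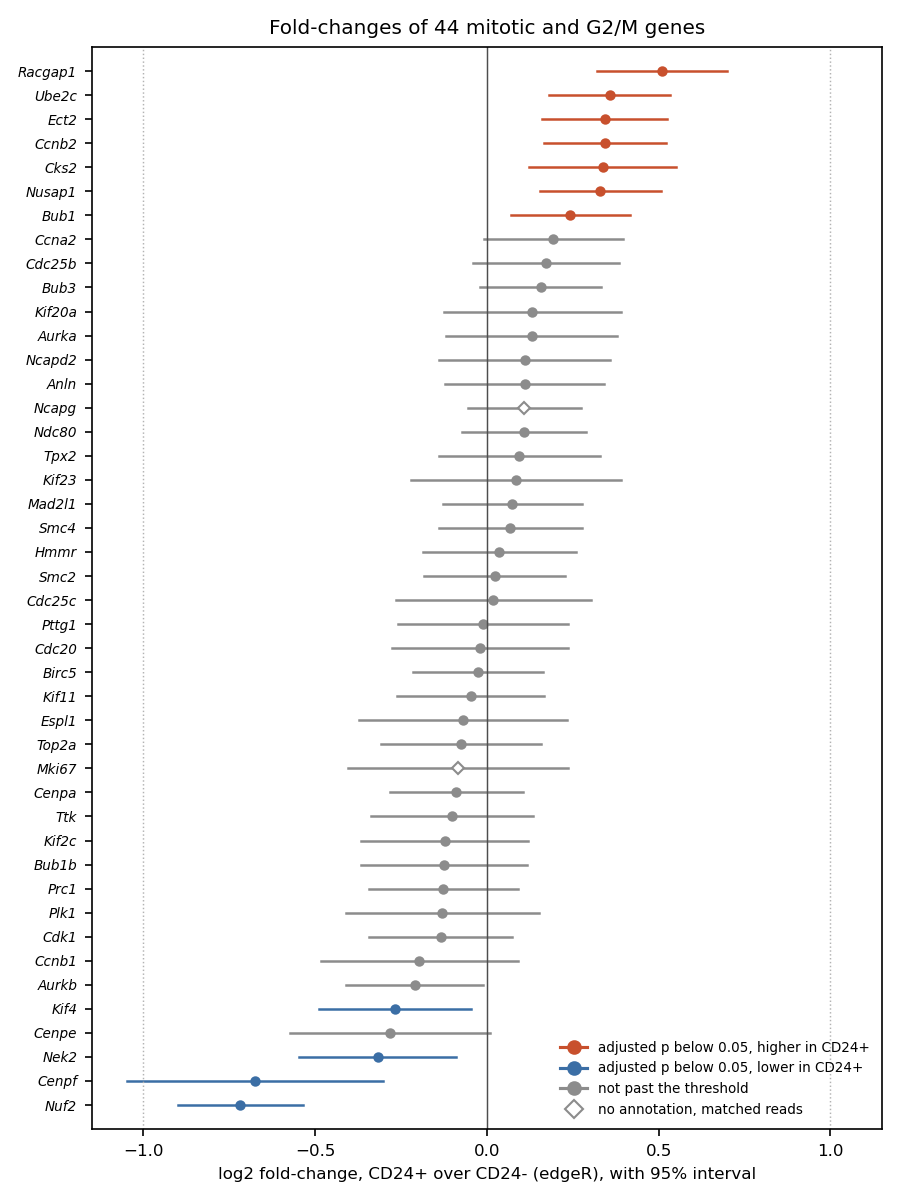
Log2 fold-changes of the 44 genes in CD24+ over CD24- cells (horizontal axis), with 95% intervals from the edgeR fit as bars and 1 gene per line. The 7 genes higher in CD24+ cells reach 0.51, the 4 lower ones reach -0.72, and no point lies beyond the dotted lines at -1 and 1. Mki67 and Ncapg, drawn as open diamonds, come from the reads matched to their transcripts.

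Mki67, the widely used marker of proliferating cells, and Ncapg, a subunit of condensin I, carried no annotation, although their reads were present. Reads that matched transcripts of these genes by exact sequence, and of no other gene in GENCODE M21, numbered 68805 for Mki67 and 9882 for Ncapg over the 6 libraries. Of these, 68190 and 9705 had been left without any annotation. To show what was left without a name, an unannotated coding read is printed for each gene. It has the most copies among reads in the sense of the transcript that lie in no untranslated part of a coding transcript. These are 172 copies at chr7:142888154-142888200 (minus strand) of mm9 for Mki67 and 47 copies at chr5:46086962-46087008 (plus strand) for Ncapg.
Mki67: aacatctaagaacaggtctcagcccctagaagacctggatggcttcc
Ncapg: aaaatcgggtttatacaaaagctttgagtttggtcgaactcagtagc
Counted through the reads that match 1 gene, Mki67 read 936, 917 and 1079 CPM in the CD24- replicates and 714, 1080.5 and 969 CPM in the CD24+ replicates. The groups overlapped, and its log2 fold-change was -0.08 (95% interval -0.40 to 0.24, adjusted p = 0.662). Ncapg read 128, 138 and 134 CPM and 142, 147 and 142 CPM in the same order. Its 3 CD24+ values lay above all CD24- values, but the log2 fold-change of 0.11 (95% interval -0.05 to 0.27) had an adjusted p of 0.251. In that fit 45.6% of all genes passed the test, 23.9% higher and 21.7% lower, and the groups did not overlap for 56.7%.

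Near-identical copies in the genome took part in the counts of some genes. Of the reads annotated to Ccnb1, 59.0% matched transcripts of several genes, among them Ccnb1-ps, Gm12856, Gm4870 and Gm8416. Such reads cannot be assigned to 1 locus, as shown by the most frequent coding reads annotated to Ccnb1, picked in the same way among sense reads. The first was found in Ccnb1 transcripts alone (chr13:101553446-101553492 (minus strand) of mm9) and the second was shared with all 4 copies (chr13:101555710-101555756 (minus strand)).
Ccnb1 own: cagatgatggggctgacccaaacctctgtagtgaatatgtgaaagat
Ccnb1 shared: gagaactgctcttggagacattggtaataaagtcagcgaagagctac
The share of annotated reads that matched another gene or several was 24.4% for Prc1, 21.02% for Kif20a, 18.6% for Plk1, 16.3% for Cdc20, 11.4% for Ccna2, 11.3% for Racgap1 and 10.3% for Kif4, and below 10% for the other annotated genes. The counts carry no strand, and an exon of 11 of the 44 genes overlaps an exon of a gene on the other strand in GENCODE M21. These include Prc1, Kif20a, Plk1, Cdc20, Ccna2 and Kif4, which overlap Rccd1, Cdc23, Gm44985, Elovl1, Exosc9 and Pdzd11 in that order, and the called genes Ube2c, Nusap1 and Nek2. Ccnb1 and Racgap1 have no such overlap. On reads of a single gene, the 11 genes called were called again in the same direction, and no fold-change of the 42 moved by more than 0.15 on the log2 scale.

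Entry into mitosis was represented by 7 genes, of which 2 rose (28.6%) and none fell in CD24+ cells, beside 23.8% and 22.3% of all genes. Ccnb1, the cyclin B that drives entry into mitosis, read 219, 214 and 243 CPM in CD24- replicates 1, 2 and 3 and 164, 240.0 and 184 CPM in CD24+ replicates 1, 2 and 3. CD24+ replicate 2 lay among the CD24- values and the other CD24+ plates below them. Its log2 fold-change was -0.20 (95% interval -0.48 to 0.09, adjusted p = 0.236). Ccnb2, the second B-type cyclin, read 101, 102 and 94.4 CPM in CD24- and 119, 134 and 123 CPM in CD24+ cells, with no overlap. Ccnb2 rose by 0.34 on the log2 scale (95% interval 0.16 to 0.52, adjusted p = 0.00552; chr9:70255508-70269369 of mm9, the span of its annotated reads). Cdk1, the kinase that both cyclins activate, read 258, 267 and 284 CPM and 224, 276 and 235 CPM in the same order. These ranges overlapped, and the log2 fold-change of -0.13 (95% interval -0.34 to 0.07) did not pass the test. Cks2, a small protein that binds Cdk1, read 44.5, 43.2 and 42.2 CPM in CD24- cells and 50.4, 60.6 and 52.6 CPM in CD24+ cells. Cks2 rose by 0.34 (95% interval 0.12 to 0.55, adjusted p = 0.0158; chr13:51740651-51746068). Ccna2, the A-type cyclin of S and G2 phase, did not overlap between the groups but missed the threshold, at 0.19 (adjusted p = 0.106). The phosphatases that activate Cdk1 gave log2 fold-changes of 0.17 for Cdc25b and 0.02 for Cdc25c, neither past the test.

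Among the 4 mitotic kinases only Nek2, which acts in the separation of centrosomes, passed the test. Nek2 read 121, 130.4 and 137 CPM in the CD24- replicates and 94.1, 119 and 97.0 CPM in the CD24+ replicates. CD24+ replicate 2 came within 2 CPM of the lowest CD24- value. Nek2 fell by 0.32 on the log2 scale (95% interval -0.55 to -0.09, adjusted p = 0.0282; chr1:193645394-193656917). Plk1, the polo kinase of mitotic entry and exit, read 173, 189 and 175 CPM and 136, 199 and 154 CPM, with CD24+ replicate 2 above and the other CD24+ plates below every CD24- value. Aurka, the kinase of the spindle poles, varied by 0.77% (CV) among CD24- plates, at 106, 104 and 105 CPM. In CD24+ cells Aurka read 102, 137 and 105 CPM, a CV of 16.9%, and its log2 fold-change was 0.13 (adjusted p = 0.364). Aurkb, the kinase of the chromosomal passenger complex, read 107, 106 and 109.7 CPM and 90.8, 103 and 84.4 CPM without overlap, and at -0.21 had an adjusted p of 0.0803.

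In the spindle assembly checkpoint 1 of 5 genes passed the test. Bub1, a kinase that brings checkpoint proteins to the kinetochore, read 141, 136 and 132 CPM in CD24- and 154, 172 and 158 CPM in CD24+ cells. Bub1 rose by 0.24 (95% interval 0.07 to 0.42, adjusted p = 0.0273; chr2:127626811-127657578). The log2 fold-changes of the others were 0.16 for Bub3, 0.07 for Mad2l1, -0.10 for the kinase Ttk and -0.13 for Bub1b. All 5 genes had intervals within 0.5 of 0 on the log2 scale.

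The largest falls were in the centromere and kinetochore group, where 2 of 6 genes were lower (33.3%, beside 22.3% of all genes). Nuf2, a subunit of the NDC80 complex that holds spindle microtubules at the kinetochore, read 106, 112 and 106 CPM in the CD24- and 63.6, 70.8 and 62.9 CPM in the CD24+ replicates. All 3 CD24+ plates were well below the lowest CD24- plate. Nuf2 fell by 0.72 on the log2 scale (95% interval -0.90 to -0.54, adjusted p = 5.60e-05; chr1:171428242-171461603). Ndc80, its partner in the same complex, gave 0.11 (95% interval -0.07 to 0.29, adjusted p = 0.301), with 61.5, 65.8 and 66.0 CPM and 67.8, 72.9 and 67.4 CPM. Cenpf, a large protein that joins the kinetochore in G2, read 433, 444 and 384 CPM in CD24- and 185, 325 and 277 CPM in CD24+ replicates. It was the least even of the 42 genes within CD24+ cells, with a CV of 27.1%, and replicate 2 was 1.76 times replicate 1. Cenpf fell by 0.67 (95% interval -1.05 to -0.30, adjusted p = 0.00782; chr1:191464674-191511970). Cenpe, a kinesin of the kinetochore, read 253, 254 and 246 CPM and 161, 247 and 209.8 CPM, and its log2 fold-change of -0.28 (adjusted p = 0.103) did not pass. Cenpa, the histone H3 variant of centromeres, and Birc5, a subunit of the chromosomal passenger complex, gave -0.09 and -0.03.

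Among the 9 kinesins and spindle proteins 1 gene rose and 1 fell (22.2% called, beside 46.1% of all genes). Nusap1, which binds and bundles spindle microtubules, read 60.5, 57.3 and 56.3 CPM in CD24- and 72.7, 74.7 and 71.3 CPM in CD24+ cells. The CD24+ plates differed little in this gene, with a CV of 2.35%. Nusap1 rose by 0.33 (95% interval 0.15 to 0.51, adjusted p = 0.00644; chr2:119444037-119475875). Kif4, the chromokinesin of the chromosome arms and spindle midzone, read 97.0, 102 and 101 CPM and 71.8, 93.5 and 83.2 CPM. Kif4 fell by 0.27 (95% interval -0.49 to -0.05; chrX:97821084-97922323) with an adjusted p of 0.0498, just under the threshold. The other 7, Kif11, Kif20a, Kif23, Kif2c, Tpx2, Prc1 and Hmmr, lay between -0.13 for Prc1 and 0.13 for Kif20a, and all 7 overlapped between the groups.

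Anaphase and cytokinesis held 3 of the 7 increases, with 1 of 4 and 2 of 3 genes called, beside 46.1% of all genes. Ube2c, the ubiquitin-conjugating enzyme of the anaphase-promoting complex, read 133, 129 and 134 CPM in CD24- and 164, 182 and 160.4 CPM in CD24+ cells, and rose by 0.36 (95% interval 0.18 to 0.53, adjusted p = 0.00409; chr2:164595413-164598406). Cdc20, which activates that complex, gave -0.02, securin (Pttg1) -0.01 and separase (Espl1) -0.07, none past the test. Racgap1, a subunit of centralspindlin at the division plane, read 233, 244 and 251 CPM and 316, 375 and 343 CPM. Racgap1 had the largest increase of the 42 genes, 0.51 on the log2 scale or 1.42-fold (95% interval 0.32 to 0.70, adjusted p = 0.000761; chr15:99450927-99482084). Ect2, the exchange factor that Racgap1 recruits to activate RhoA, read 180.0, 171 and 194 CPM and 230.1, 243 and 218 CPM. Ect2 rose by 0.34 (95% interval 0.16 to 0.52, adjusted p = 0.00619; chr3:26996147-27052781). Kif23, the motor subunit of centralspindlin, gave 0.09 (adjusted p = 0.637) and overlapped between the groups. Anln, an actin-binding protein of the cleavage furrow, gave 0.11 (95% interval -0.12 to 0.34).

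None of the 4 annotated genes of chromosome structure passed the test, where 46.1% of all genes did. Top2a, the topoisomerase that untangles sister chromatids, had the highest level of the 42 genes and read 910.2, 899 and 900.0 CPM in CD24- and 728, 974 and 865 CPM in CD24+ replicates. The CD24- plates differed by a CV of 0.70% and the CD24+ plates by 14.4%, and the log2 fold-change was -0.08 (95% interval -0.31 to 0.16, adjusted p = 0.573). The condensin genes Smc2, Smc4 and Ncapd2 lay between 0.02 and 0.11. Levels can be compared between genes only per length, and in RPKM from the reads that match a single gene of GENCODE M21, not from the annotated counts above, Top2a (173 ± 1.43 in CD24- and 162 ± 24.4 in CD24+ cells) and Anln (158 ± 14.8 and 168 ± 19.9) had the highest means, Top2a above Anln in CD24- and below it in CD24+ cells. Pttg1 was the lowest of the 44, at 13.5 ± 1.47 and 13.4 ± 0.168 on that scale (SD, n = 3 each). The length was that of the longest protein-coding transcript of each gene. Most reads across exon junctions and all reads shared with other genes are missing from these counts. Both differ by gene, so the ranks are approximate.

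**Figure D2:**
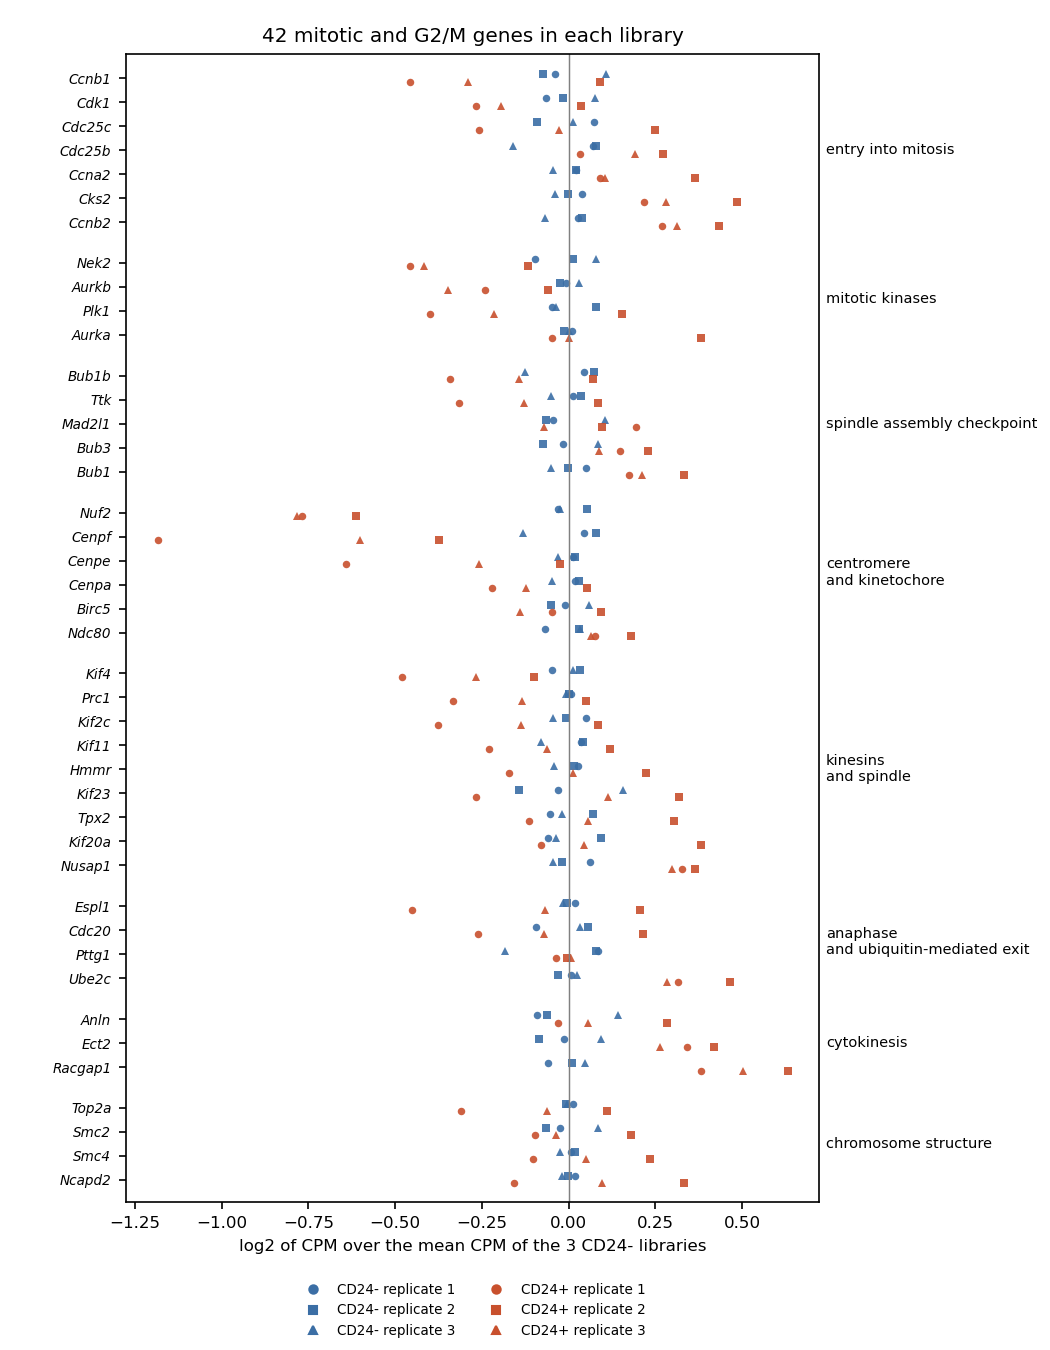
Level of the 42 annotated genes in each of the 6 libraries, as log2 of the CPM over the mean CPM of the 3 CD24- libraries (horizontal axis), grouped by role. The 3 CD24+ plates spread widely around the tight CD24- values, and CD24+ replicate 2 (red squares) is the rightmost CD24+ plate in 40 of the 42 genes.

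The CD24+ plates differed from each other in nearly all of these genes at once. Replicate 2 was the highest CD24+ plate in 40 of 42 genes and replicate 1 the lowest in 33, where the same held for 34.7% and 37.9% of all genes tested. The order of replicate 2 above 3 above 1 was found in 32 of the 42 genes and in 23.3% of all genes. The level in replicate 2 over that in replicate 1 had a median of 1.27, and ranged from 0.935 for Mad2l1 to 1.76 for Cenpf. For all genes the median ratio was 0.996. In 31 of the 42 genes the log2 ratio of these plates was larger than the fold-change between the sorted groups. That ratio sets single libraries, the extremes for most of these genes, beside a contrast of whole groups. The same count was not made over all genes. No test was made on plates, which are replicates of 1 group.

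As a share of all gene reads, the 42 genes took 0.810%, 0.816% and 0.811% in the CD24- replicates and 0.702%, 0.909% and 0.786% in the CD24+ replicates. The CD24- plates were nearly equal, and the CD24+ plates lay on both sides of them. After every library was thinned to the depth of the shallowest, the CD24+ shares were 0.702%, 0.910% and 0.786%. Thinning leaves the shallowest library as it was and keeps the expected share in the others. It therefore cannot show whether depth bears on the shares. With each distinct sequence counted once per library, the shares were 0.824%, 0.820% and 0.820% in the CD24- and 0.770%, 0.819% and 0.748% in the CD24+ replicates. Reads per distinct sequence were 1.75 to 1.86 in the CD24- replicates and 1.56, 2.45 and 2.36 in the CD24+ replicates, which had 6491832, 17765080 and 19100843 gene reads. Counting distinct sequences put all 3 CD24+ shares below every CD24- share, replicate 2 only narrowly, whereas on reads they lay on both sides. Whether depth had a part in this was not tested, and no order of the groups was read from the shares. The CV between plates had a median of 3.90% in CD24- and 11.9% in CD24+ cells over the 42 genes, and of 8.56% and 9.20% over all genes. The CD24+ CV was the larger one in 37 of the 42 genes (88.1%) and in 51.01% of all genes. Every role took part, since replicate 2 was highest in all 7 genes of mitotic entry, all 4 kinases, all 6 centromere genes, all 9 spindle genes, all 3 cytokinesis genes and all 4 genes of chromosome structure, with Mad2l1 and Pttg1 as the exceptions among the 42.

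Calls moved with CD24+ replicate 2. Without it, 8 of the 42 genes were lower and 5 higher in CD24+ cells, the median log2 fold-change was -0.08, and Cenpe (-0.44), Ccnb1 (-0.38), Plk1 (-0.31) and Aurkb (-0.30) passed the test. In that fit 21.7% of all genes were lower and 22.8% higher. Without CD24+ replicate 1 the median was 0.07, with 7 genes higher and 2 lower, beside 21.1% and 20.6% of all genes.

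**Figure D3:**
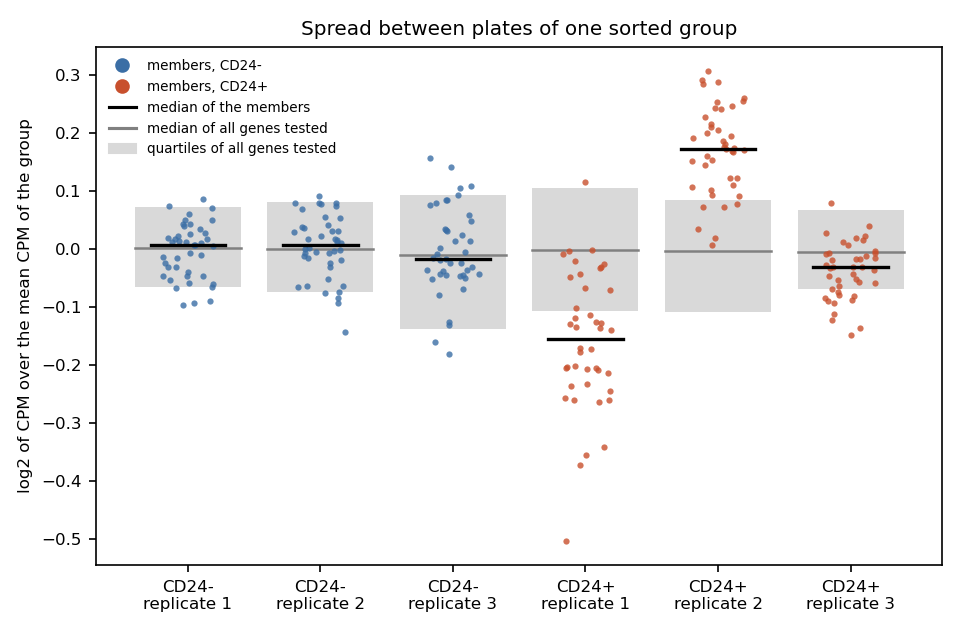
Log2 of the CPM in a library over the mean CPM of its group (vertical axis), for the 42 genes as points with their median as a black line, and for all genes tested as a grey line (median) and box (quartiles). The mitotic genes centre on 0.17 in CD24+ replicate 2 and on -0.16 in CD24+ replicate 1, outside the grey boxes, and stay near 0 in the 3 CD24- libraries.

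Other genes of the cell cycle were read in the same fit. Among the mitotic genes that were not in the list of 44, 84 were tested, and CD24+ replicate 2 was the highest CD24+ plate in 57 of them (67.9%). Among 35 tested genes of DNA replication and S phase, it was the highest in 28 (80.0%), with a median ratio of replicate 2 to replicate 1 of 1.13. The S phase genes gave 4 higher and 6 lower genes (28.6% called, beside 46.1% of all genes) and a median log2 fold-change of -0.02. Rrm2, a subunit of ribonucleotide reductase, was the largest fall there, from 482, 492 and 585 CPM in CD24- to 263, 306 and 249.7 CPM in the CD24+ replicates (a log2 fold-change of -0.93 with an adjusted p of 5.72e-05). Rfc4, of the clamp loader, was the largest increase at 0.40.

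The lists of other mitotic genes held changes in both directions, where 23.8% of all genes were higher and 22.3% lower. Of 21 other G2/M regulators, 2 were higher and 3 lower, from Aspm, a spindle pole protein, at -0.65 to Pkmyt1, a kinase that inhibits Cdk1, at 0.55. Of 28 other kinetochore and checkpoint genes, 5 were higher and 6 lower, with Nsl1 of the MIS12 complex at -0.91 (adjusted p = 0.000141). Cenpp had the largest fold-change of that list, 1.49 on annotated reads, but 0.09 (adjusted p = 0.706) on reads that match its transcripts alone. Of 7 other mitotic kinesins, 1 was higher (Kif18a, 0.42) and 3 lower, with Kif14 at -0.79. The anaphase-promoting complex gave 3 higher and 1 lower of 15 subunits and regulators, from Anapc7 at -0.39 to Anapc13 at 0.54. Other condensin and cohesin genes gave 1 higher (Ncaph2, 0.49) and 2 lower of 13, with the cohesin release factor Wapal at -0.28.

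Position on the chromosomes was looked at after the values had been seen. All 3 listed genes on chromosome 1, Nuf2, Cenpf and Nek2, were lower, and they were the 3 largest falls among the 42. With the other mitotic genes, 9 genes of chromosome 1 were tested, of which 7 were lower and none higher, and all 9 had negative fold-changes with a median of -0.67. Of all genes on chromosome 1, 41.7% were lower and 17.0% higher. The 117 mitotic genes on other chromosomes gave 19 higher (16.2%) and 12 lower genes (10.3%) and a median of -0.01, beside 24.3% higher, 21.05% lower and a median of 0.03 for the 10466 genes there. Most other genes in the distal part of chromosome 1 were lower as well. Of 217 tested genes starting between 150 and 200 Mb of chromosome 1 (mm9), 67.7% were lower in CD24+ cells and the median log2 fold-change was -0.54, while the 113 genes between 0 and 50 Mb had a median of 0.02. Within 5 Mb of Nuf2, 41 of 58 other genes were lower, within 5 Mb of Cenpf 25 of 41, and within 5 Mb of Nek2 23 of 34.

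The fold-changes were also set beside those of neighbouring genes. Over the 42 genes, Pearson's r between the fold-change of a gene and the median of the genes within 5 Mb was 0.55 (Spearman's rho 0.32), and without the 3 genes of chromosome 1 it was 0.11 (rho 0.15). These are correlations across genes measured in the same 6 libraries, not across replicates. On chromosome 2, 6 of 7 listed genes had positive fold-changes and 3 were called higher (Ube2c, Nusap1 and Bub1), on a chromosome whose 889 tested genes had a median of 0.15, with 33.3% called higher. Racgap1 and Espl1 lie on chromosome 15, whose 441 genes had the highest median of the chromosomes that hold a listed gene, 0.25. Without chromosome 1, 1 of 39 listed genes was lower (2.56%) and 7 were higher (17.9%), beside the same 21.05% and 24.3% of all genes there.

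**Figure D4:**
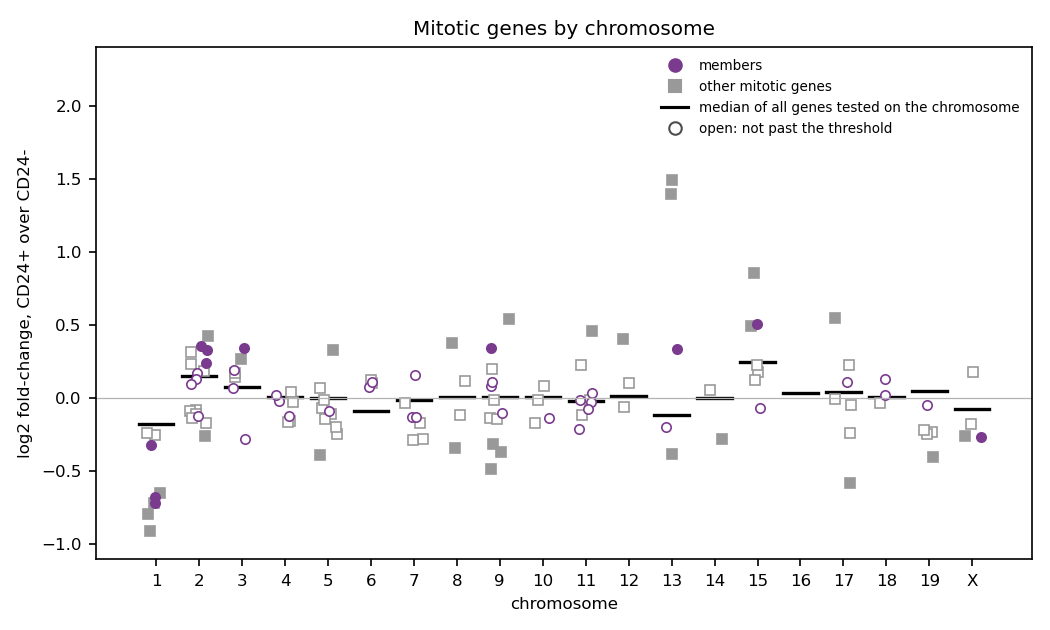
Log2 fold-change in CD24+ over CD24- cells (vertical axis) of the listed genes (circles) and the other mitotic genes (squares) by chromosome, filled where the adjusted p was below 0.05, with the median of all genes tested on the chromosome as a black line. All 9 mitotic genes on chromosome 1 lie below 0, and the median of that chromosome is -0.18.

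The promoters of mitotic genes are known to share the CHR element and CCAAT boxes, which mediate their repression and activation through the cycle. Of the 44 genes, 38 had a promoter window from RefSeq (GRCm38.p6, 250 bases before to 50 after the start). The CHR core TTTGAA, on either strand, was in 27 windows (71.1%) and in 18.1% of the 27025 windows of all genes. CCAAT, on either strand, was in 30 (78.9%) and in 37.9% of all windows. Both were in 24 windows (63.2%, beside 7.12%) and neither in 5 (13.2%, beside 51.1%). A match describes the letters in the window and no binding was measured. The 250 bases before the start are printed for 3 genes with large increases, for the called falls whose window held a motif and came first by size, and for Ccnb1, with TTTGAA and CCAAT on either strand in capitals.
Racgap1: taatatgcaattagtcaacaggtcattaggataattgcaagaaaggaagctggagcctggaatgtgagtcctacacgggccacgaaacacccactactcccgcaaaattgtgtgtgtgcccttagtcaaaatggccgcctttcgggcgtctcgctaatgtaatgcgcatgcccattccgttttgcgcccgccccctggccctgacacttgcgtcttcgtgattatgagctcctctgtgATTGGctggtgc
Ube2c: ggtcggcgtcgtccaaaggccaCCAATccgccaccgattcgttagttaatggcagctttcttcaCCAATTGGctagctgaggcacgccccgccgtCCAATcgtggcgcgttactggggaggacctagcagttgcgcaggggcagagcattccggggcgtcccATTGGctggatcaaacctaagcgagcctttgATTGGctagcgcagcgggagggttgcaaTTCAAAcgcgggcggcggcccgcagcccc
Ect2: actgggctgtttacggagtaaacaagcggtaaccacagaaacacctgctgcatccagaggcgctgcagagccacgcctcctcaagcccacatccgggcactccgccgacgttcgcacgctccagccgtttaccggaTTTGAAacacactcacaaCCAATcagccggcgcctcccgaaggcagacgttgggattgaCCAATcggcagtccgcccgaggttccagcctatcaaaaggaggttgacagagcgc
Cenpf: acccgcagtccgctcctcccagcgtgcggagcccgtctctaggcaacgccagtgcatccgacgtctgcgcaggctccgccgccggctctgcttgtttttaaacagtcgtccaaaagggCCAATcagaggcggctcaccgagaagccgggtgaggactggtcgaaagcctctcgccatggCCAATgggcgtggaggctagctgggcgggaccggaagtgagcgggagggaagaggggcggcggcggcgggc
Nek2: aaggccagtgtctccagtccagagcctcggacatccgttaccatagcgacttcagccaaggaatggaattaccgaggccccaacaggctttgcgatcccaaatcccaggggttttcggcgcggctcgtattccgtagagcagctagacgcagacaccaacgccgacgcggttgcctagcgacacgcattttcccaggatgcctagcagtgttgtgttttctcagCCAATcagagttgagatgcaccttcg
Ccnb1: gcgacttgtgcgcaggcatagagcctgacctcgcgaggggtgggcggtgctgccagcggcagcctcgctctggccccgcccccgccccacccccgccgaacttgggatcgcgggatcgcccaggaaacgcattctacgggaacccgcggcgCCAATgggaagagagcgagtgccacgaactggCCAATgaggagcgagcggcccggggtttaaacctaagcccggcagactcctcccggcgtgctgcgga
In GRCm38.p6 they lie at chr15:99651657-99651906 (minus strand) for Racgap1, chr2:164769679-164769928 (plus strand) for Ube2c, chr3:27153879-27154128 (minus strand) for Ect2, chr1:189688087-189688336 (minus strand) for Cenpf, chr1:191821223-191821472 (plus strand) for Nek2 and chr13:100786487-100786736 (minus strand) for Ccnb1. Racgap1 and Cenpf each held 1 TTTGAA that is not in the printed bases, since it ends after the start. The same holds for a further TTTGAA and a further CCAAT of Ect2 and for a further CCAAT of Nek2. Neither motif was in the window of Nuf2, which had the largest fall, or in that of Nusap1, which was higher.

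The cell type of the label was checked against fixed marker lists. Krt8 and Krt18, keratins of simple epithelium, were high in both groups, but Cdh1 and Epcam, which define epithelial cells, were at or near 0, with at most 0.0563 and 0.192 CPM in any library (without TMM scaling). The epithelial markers (10 of 12 annotated) summed to 1846 to 2066 CPM in CD24- and 758 to 887 in CD24+ libraries. Of the 4 tested, 3 were lower, with the largest fall in Krt19 (log2 fold-change -1.96), and 1 was higher, Cldn3 (2.47). The fibroblast markers (6 of 8) summed to 9.23 to 25.4 and 109 to 196, with all 5 tested higher. Col3a1 made up most of the sum except in CD24- replicate 3, where it read 3.49 CPM and Pdgfra 4.17 CPM. Among the fibroblast markers Dcn had the largest increase (log2 fold-change 4.71), at no more than 3.09 CPM in any library. The leukocyte markers (5 of 10) summed to 46.6 to 81.6 and 7.15 to 9.40, nearly all Cd68, while Ptprc, which all leukocytes carry, reached at most 0.105. Itgam had the largest fall of that list (log2 fold-change -6.85), from 3.27 to 4.51 CPM in CD24- to at most 0.0524 CPM in CD24+ libraries. The endothelial markers (5 of 6) summed to 2.70 to 4.70 and 0.785 to 2.003, with Pecam1 at 0.32 or less. Their part in the levels of the mitotic genes was not tested. None of the 4 tested epithelial markers was highest in CD24+ replicate 2.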

How the data were processed

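The authors deposited, for each of the 6 libraries, raw counts of every distinct 47-nt read that matched the mouse genome exactly, with its location (mm9 in the submitters' processing notes) and 1 annotation. Reads had been trimmed by 2 nt at each end from 51 nt and were neither normalized nor pooled. An exact match drops most reads across exon junctions or variants. Neither the aligner nor where the annotation came from is given in the sources used here.

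Counts were summed per gene annotation, leaving out repeats and unannotated reads (16.9% to 20.2%). Genes passing filterByExpr were tested with edgeR 4.0.16 in R 4.3.3 (TMM, quasi-likelihood F test, Benjamini-Hochberg over all genes, threshold 0.05), all 6 libraries in 1 fit. Reads were also matched by exact sequence to GENCODE M21 transcripts. The 44 genes and the other lists were chosen with earlier results of these data known. Values by library are given for Ccnb1, Cdk1, Plk1, Aurka, Mki67, Top2a and the genes called, for Aurkb, Cenpe, Ndc80 and Ncapg, which were chosen after their values were seen, and other values as fold-changes. Of other genes, the largest called change of each list in each direction, further markers and Cd24a are named. DESeq2 1.42.0 and limma 3.58.1 served as alternatives. On simulated counts of 11125 genes, 24% of genes changed 1.2-fold, 96% of those changed 1.5-fold and all of those changed 2-fold were recovered. Only 50 genes were changed at each fold, all above a minimum level, and the genes were drawn independently. In the data 46.1% of all genes were called, and the listed genes shifted together between CD24+ plates. The rates are therefore not the recovery for the listed genes. The p-values measure the spread between plates. Replicates of a group differed by more than sampling noise. The chi-square over its degrees of freedom was 1.71 for CD24- replicates 1 and 2, and 9.33 to 15.2 for the other pairs. Same-numbered libraries of the groups did not deviate together.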

Additional observations from a re-analysis of the deposited data

Results flagged for a closer look

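Reads of Mki67 and Ncapg lay in data that the annotated counts do not use. Over the 6 libraries, 68190 reads that matched Mki67 transcripts alone and 9705 that matched Ncapg transcripts alone had no annotation. In the 3 CD24- replicates the unannotated reads numbered 8580, 9360 and 9131 for Mki67 and 1155, 1396 and 1110 for Ncapg. In the CD24+ replicates they numbered 4474, 18540 and 18105 for Mki67 and 881, 2515 and 2648 for Ncapg. Why these genes lacked an annotation was not tested. Groups of 3 libraries were too small for a search for single outlying libraries.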

How the results depend on the processing

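No called gene of the 42 changed direction under any of the 15 alternatives that give a fold-change, and Nuf2, Cenpf and Nusap1 were called under all 15. A minimum log2 fold-change of 1 left 0 of the 42 genes (0 higher, 0 lower; edgeR, 12 at an unadjusted p below 0.05 without it), 2 other cell-cycle genes of 37 and 1600 of all genes. Counting each distinct sequence once left 3 genes, 1 higher and 2 lower, where 33.4% of all genes were called. It also left 23 other cell-cycle genes and put the CD24- share at 0.821%. On reads of a single gene that share was 0.902%. The causes of these differences were not tested. With each library left out, 7 to 13 genes were called, 5 to 7 of them higher and 2 to 8 lower, while 36.1% to 47.4% of all genes were called. The fewest in all, 16.7% of the 42 beside 37.6% of all genes, came without CD24- replicate 2. The lower count was 2 without CD24- replicate 2, CD24- replicate 3, CD24+ replicate 1 or CD24+ replicate 3, and 8 without CD24+ replicate 2. Of those 15 alternatives, Kif4 lost its call in 9, Bub1 in 8, Nek2 in 5 and Cks2 in 3, and Ccnb2, Ube2c, Ect2 and Racgap1 in 1 each. The replicate number as a replicate block gave 9 genes, 21.4% beside 40.4% of all genes (adjusted p of 0.0722 for Bub1 and 0.0526 for Kif4). The correlations of same-numbered libraries were 0.01, -0.25 and -0.31, and those of other-numbered libraries ran from -0.20 to 0.30. Deviations within a group of 3 libraries are not independent, so this check cannot exclude a pairing. The median log2 fold-change of the 42 genes, 0.02, lay between -0.08 (without CD24+ replicate 2) and 0.07 (without CD24+ replicate 1). Without Cdk1, found by its synonym after the data were seen, 11 of 41 genes were called (26.8%, beside 46.1% of all genes).

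Genes near 0 that missed the threshold changed sign in places. Counting distinct sequences once gave log2 fold-changes of -0.0021 (Aurka), -0.023 (Mad2l1), -0.00089 (Kif20a), -0.049 (Tpx2), -0.070 (Hmmr), -0.033 (Anln), -0.044 (Smc2), -0.042 (Smc4), -0.015 (Ncapd2). Library totals without TMM gave -0.0028 (Cdc25c), -4.8e-05 (Smc2). The quantile-normalized estimate gave -0.019 (Cdc25c), 0.011 (Birc5), -0.016 (Smc2), and thinning gave 0.033 (Pttg1). With each library left out, ranges were -0.13 to 0.11 for Cdc25c, -0.028 to 0.20 for Aurka, -0.10 to 0.015 for Birc5, -0.15 to 0.023 for Kif11, -0.023 to 0.21 for Kif20a, -0.059 to 0.21 for Kif23, -0.032 to 0.18 for Tpx2, -0.078 to 0.11 for Hmmr, -0.17 to 0.070 for Cdc20, -0.091 to 0.031 for Pttg1, -0.24 to 0.067 for Espl1, -0.19 to 0.018 for Top2a, -0.074 to 0.068 for Smc2, -0.031 to 0.14 for Smc4 and -0.026 to 0.21 for Ncapd2. The fewest reads behind a listed gene were 1687 (Pttg1).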

Other observations

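Some reads of the listed genes carried another name. Of the reads that matched coding sequence of Mki67, 661 were shared with another gene and annotated as Vmn2r57. Hmmr transcripts alone matched 5407 reads whose annotation held a dot, the form taken here for a repeat, beside the 10047 reads annotated to the gene. Aurkb and Cenpa had 2351 and 1817 such reads. Dotted annotations entered no gene count of the annotated fit, except those that are RefSeq symbols or transcript numbers. Which of these reads fell under that exception was not checked. The 661 reads were counted under Vmn2r57.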
